A study of Mus musculus with 3 samples.

Results

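The neurons described here are C-fibre low-threshold mechanoreceptors (C-LTMRs) of mouse dorsal root ganglia (DRG), taken as the neurons that carried both Th, which encodes tyrosine hydroxylase, the rate-limiting enzyme of catecholamine synthesis, and Fam19a4, which encodes the secreted protein TAFA4. In the single DRG library a barcode was called a neuron with at least 10000 unique molecular identifiers (UMIs, 1 per captured transcript) and at least 5 of the 8 markers Rbfox3, Snap25, Tubb3, Avil, Prph, Isl1, Scn9a and Uchl1. The C-LTMRs were chosen by the measured counts of these genes in each neuron, at least 3 UMIs of Th and at least 3 of Fam19a4. This gave 303 C-LTMRs among 2948 neurons (10.3%, exact Clopper-Pearson 95% interval 9.20% to 11.4%), in a library of 23566 barcodes and a series of 81584. The other 2645 neurons served as the comparison.

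C-LTMRs are unmyelinated sensory neurons that innervate hairy skin as lanceolate endings around hair follicles and respond to gentle, slowly moving touch. They are known in mouse for Th, for the vesicular glutamate transporter encoded by Slc17a8, for TAFA4, which lowers mechanical pain after injury, and for a dependence on the transcription factor Runx1 and the receptor Ret during their development. Light touch depends on Piezo2, a mechanically gated channel, and low-voltage-activated calcium channels lower the firing threshold of such neurons.

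The series concerns sensory innervation and FGF1 in degeneration of mouse Achilles tendon and holds 3 droplet libraries (10x Genomics Chromium) from C57BL/6 mice, 1 per group. For the DRG library, 5 µL of AAV-PHP.S-tdTomato, an adeno-associated virus with the gene of a red fluorescent protein, was put into the left Achilles tendon sheath when the mice were aged 4 weeks, and ganglia from L4 to S1 were taken 4 weeks later. All DRG cells therefore come from injected animals, 18 ganglia of 6 mice were pooled, and the labels differ on whether ganglia of both sides or of the injected side were used and, in 1 place, name a lentivirus. The tendon libraries were a sural neurectomy group, with the nerve cut, and a sham group with the nerve exposed, each of 5 mice and each with 4 weeks of dorsiflexion immobilisation. The DRG cells were enriched on an Optiprep density gradient, which can set the shares of cell types.

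The DRG library held 239515477 UMIs, with a median of 3422 per barcode, and the neurectomy and sham libraries held 79750679 and 133570956. The DRG library shared 153 barcode sequences with the neurectomy library and 189 with the sham library, of which 2 and 1 were C-LTMR barcodes. In tendon Th had no UMI in either library, which allows up to 0.0463 CPM (UMIs per 1000000) in the neurectomy library and 0.0276 in the sham library, Fam19a4 (listed there as Tafa4) had 4 UMIs in each, and no barcode met the C-LTMR rule. With 1 DRG library there is no replicate and no test between groups, so every interval covers counting error only and every difference is a difference between sets of neurons of this library.

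The promoters of Th, P2ry1 and Slc17a8 are shown because these genes, the first a rule gene and the others C-LTMR genes not used by the rule, marked the same neurons. Each sequence is the 250 bases before the annotated start, 5′ to 3′ on the gene's strand, from RefSeq on GRCm38.p6, and capitals mark a cyclic AMP response element (CRE).
Th, chr7:142899996-142900245, minus strand: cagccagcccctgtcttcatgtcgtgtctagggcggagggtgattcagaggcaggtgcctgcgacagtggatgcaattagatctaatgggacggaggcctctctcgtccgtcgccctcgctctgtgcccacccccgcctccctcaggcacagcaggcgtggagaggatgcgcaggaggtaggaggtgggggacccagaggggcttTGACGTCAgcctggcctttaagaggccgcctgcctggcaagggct
P2ry1, chr3:61002535-61002784, plus strand: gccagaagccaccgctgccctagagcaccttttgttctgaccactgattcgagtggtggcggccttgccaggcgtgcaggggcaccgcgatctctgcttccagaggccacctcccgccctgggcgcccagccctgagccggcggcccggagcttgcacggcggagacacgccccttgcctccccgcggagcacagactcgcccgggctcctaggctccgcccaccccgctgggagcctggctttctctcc
Slc17a8, chr10:89621250-89621499, minus strand: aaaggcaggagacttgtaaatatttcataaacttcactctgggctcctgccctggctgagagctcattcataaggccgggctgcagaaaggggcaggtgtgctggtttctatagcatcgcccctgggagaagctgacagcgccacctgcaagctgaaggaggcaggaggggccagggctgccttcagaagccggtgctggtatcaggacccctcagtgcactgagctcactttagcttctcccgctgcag
The CRE searched was TGACGTCA, which is its own reverse complement, and in Th it ended 37 bases before the start. Of 14 genes looked up (Th, Fam19a4 and the 12 genes with the highest ratios below), 12 were found, with 16 windows. The CRE was in 1 of these 12 genes and in 508 of all 32851 promoter windows of that length (1.55%). The RUNX core TGTGGT, with its reverse complement ACCACA, was in 0 of the 12 genes and in 4614 of all windows (14.05%). These matches describe letters and not binding, and Fam19a4 and Cckar are named only.

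Both rule genes were far above their minimum in most C-LTMRs. Th had 3 UMIs in the lowest C-LTMR, a median of 12 and 66 in the highest, and summed to 270.8 CPM against 10.2 CPM in the other neurons. Fam19a4 had 3, 33 and 97 UMIs and summed to 676.5 CPM against 22.5 CPM. These values chose the neurons and are given as a description. The C-LTMRs were as deep as the other neurons, with 12443, 52199 and 110882 UMIs as the lowest, median and highest, and a median of 51688 in the others. They had a median of 6.44% mitochondrial UMIs against 4.77% in the others, and thinned to 10000 UMIs they had a median of 3774 genes against 3738. The part of mitochondrial content in the results was not tested.

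**Figure D1:**
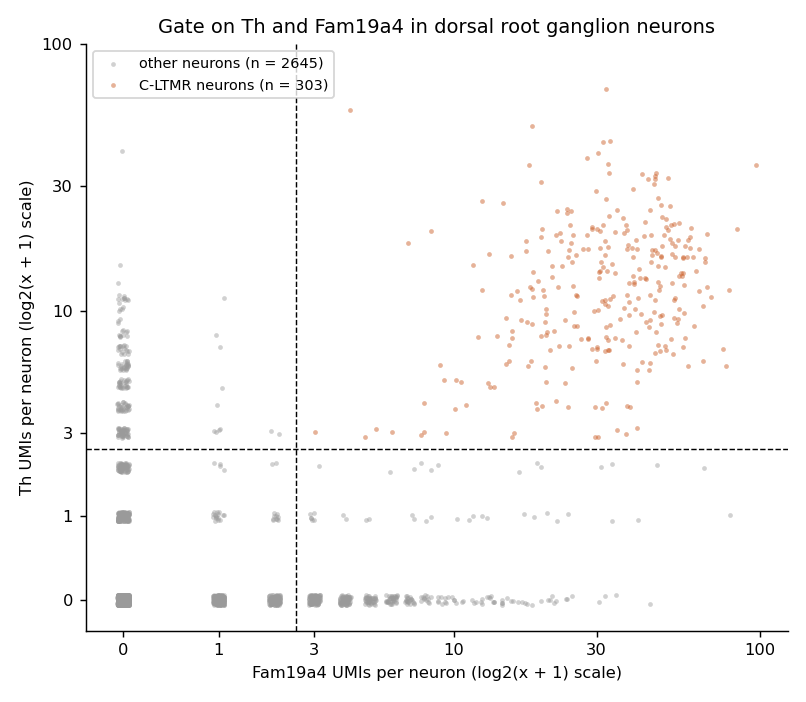
Fam19a4 UMIs (x axis) and Th UMIs (y axis) of each of the 2948 neurons, both axes as log2(UMIs + 1) with points jittered, and lines at the minimum of 3 UMIs. The 303 C-LTMRs fill the upper right, with 198 neurons at Th alone along the y axis and neurons with Fam19a4 alone spread along the x axis.

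The edge of the rule was not the same on its Th side and on its Fam19a4 side. The 14 C-LTMRs with exactly 3 Th UMIs had 71.4 CPM of Slc17a8, and the 13 neurons just outside, with 2 Th UMIs and at least 3 of Fam19a4, had 60.8 CPM. Neurons with under 3 Th UMIs but at least 10 Fam19a4 UMIs numbered 65, of which 45 had no Th UMI, and they had 58.0 CPM of Slc17a8 and 269.6 CPM of P2ry1. So neurons with the other C-LTMR genes lay outside the rule on its Th side. On the other side, the 198 neurons with at least 3 Th UMIs and at most 2 of Fam19a4 had 2.02 CPM of Slc17a8 and 3078 CPM of Calca, the gene of the pain peptide CGRP. The 2 of these that had 2 Fam19a4 UMIs had no Slc17a8 UMI, and the 1 C-LTMR with exactly 3 Fam19a4 UMIs had none either. Neurons with 3 to 9 Fam19a4 UMIs and under 3 of Th numbered 304 and had 160.3 CPM of Mrgprd, a receptor of non-peptidergic nociceptors, and 2.68 CPM of Slc17a8. The 13 C-LTMRs with only 3 to 9 Fam19a4 UMIs had 51.4 CPM of Slc17a8 and 2095 CPM of Calca.

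The label was checked with 10 C-LTMR genes that the rule did not use. Of these, 9 were at least 2-fold higher in C-LTMRs than in the other neurons, 0 were at least 2-fold lower and Runx1 lay between, with a median log2 ratio of 2.53. Over all 9448 genes that entered (at least 50 UMIs over both sets and at least 10 CPM in the higher), 7.11% were higher and 9.61% lower by that measure, and the median log2 ratio was 0.00. The neurons were gated on correlated genes of the same cells, so these counts describe the set and test nothing.

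Among those 10 genes, Slc17a8, the vesicular glutamate transporter of C-LTMRs, had a UMI in 295 of 303, with 0, 6 and 17 UMIs as the lowest, median and highest, and summed to 116 CPM against 3.39 CPM (log2 ratio 5.10, 95% interval 4.96 to 5.25). P2ry1, a receptor for ADP, had a UMI in all 303, with 1, 21 and 47 UMIs, and summed to 420 CPM against 18.0 CPM (log2 ratio 4.55, 4.48 to 4.61). Piezo2 had 12, 68 and 171 UMIs and summed to 1368 CPM against 284.4 CPM (log2 ratio 2.27). Every C-LTMR thus carried P2ry1 and Piezo2, and nearly every one Slc17a8. Gfra2, the neurturin co-receptor, summed to 639.7 CPM against 148.5 CPM (log2 ratio 2.11), and Ret, which signals with it, was 1.11 higher on the log2 scale. The zinc finger factor Zfp521 (2.86), the basic helix-loop-helix gene Bhlha9 (3.34) and Rarres1 (2.79) followed in log2 ratio, and Cacna1h, a T-type calcium channel, was at 44.2 CPM against 11.1 CPM. Runx1 was at 565.4 CPM against 339.7 CPM, a log2 ratio of 0.73.

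The shares of neurons with a UMI after thinning each barcode to 5000 UMIs gave the same order. Slc17a8 was in 44.9% of C-LTMRs, 1.85% of other neurons and 0.245% of 2862 glial barcodes, and P2ry1 in 82.8%, 6.84% and 2.24%. Without thinning P2ry1 was in 100% of C-LTMRs, 22.1% of other neurons and 3.42% of glial barcodes. The glial barcodes should lack both genes and give a guide to free RNA, with a median of 6510.5 UMIs before thinning. They were chosen for at most 2 neuron markers, so they may understate free neuronal RNA.

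The 12 genes with the highest log2 ratios (at least 50 CPM, interval beyond 2-fold, rule genes left out) included channels, receptors and secreted proteins. Cacna1i, a T-type calcium channel that opens near rest, led with 57.4 CPM against 1.04 CPM (log2 ratio 5.79, 5.54 to 6.05). It was in 287 of 303 C-LTMRs with a median of 3 and a highest of 10 UMIs, and after thinning in 26.4% of C-LTMRs, 0.832% of other neurons and 0.0349% of glial barcodes. Cckar, a receptor for cholecystokinin, was at 143 CPM against 2.95 CPM (log2 ratio 5.60, 5.45 to 5.75), in 295 C-LTMRs with a median of 7 UMIs. Dgkk, a diacylglycerol kinase, was at 94.5 CPM against 2.48 CPM (5.25, 5.08 to 5.42). The ratios of the 12 genes ran from 21.2 for Ceacam10 to 55.2 for Cacna1i.

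The rest of the 12 were Slc17a8, described above, Ccl1 (4.71), a chemokine, Cd34 (4.58), a cell surface sialomucin used as a marker of blood stem cells and endothelium, P2ry1, the unnamed transcript D130079A08Rik (4.51), Scin (4.48), which severs actin filaments, Hcrtr2 (4.47), an orexin receptor, Spink2 (4.44), a protease inhibitor, and Ceacam10 (4.41), given as log2 ratios. Cd34 was in 294 C-LTMRs with a median of 6 UMIs, and after thinning in 54.1% of C-LTMRs, 3.33% of other neurons and 0.839% of glial barcodes. Ceacam10 was the least evenly spread, with a UMI in 190 of 303. Markers of endothelium, 1 cell type known for Cd34, summed to 15.2 CPM in C-LTMRs and 20.8 CPM in the other neurons. Their median over C-LTMRs was 0, and whether Cd34 came from other cells was not tested.

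Under the same limits (at least 50 CPM in the higher set, interval beyond 2-fold), the 12 genes with the lowest log2 ratios were genes of other sensory classes. Nppb, the natriuretic peptide of itch neurons, was at 5.13 CPM against 197 CPM (log2 ratio -5.26), and 10 C-LTMRs held 96.3% of its UMIs. Nts (-4.99), the neurotensin gene, Il31ra (-4.56), a receptor subunit for the itch cytokine IL-31, and Htr1f (-4.36), a serotonin receptor, belong with the same itch neurons. Gal (-3.89), the galanin peptide gene, was at 10.96 CPM against 162 CPM. Ptprk (-4.18), Negr1 (-3.97), Stxbp5l (-3.97), Kcnmb2 (-3.88), Tmem233 (-3.79), Trappc3l (-3.65) and Cntnap4 (-3.63) made up the rest.

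**Figure D2:**
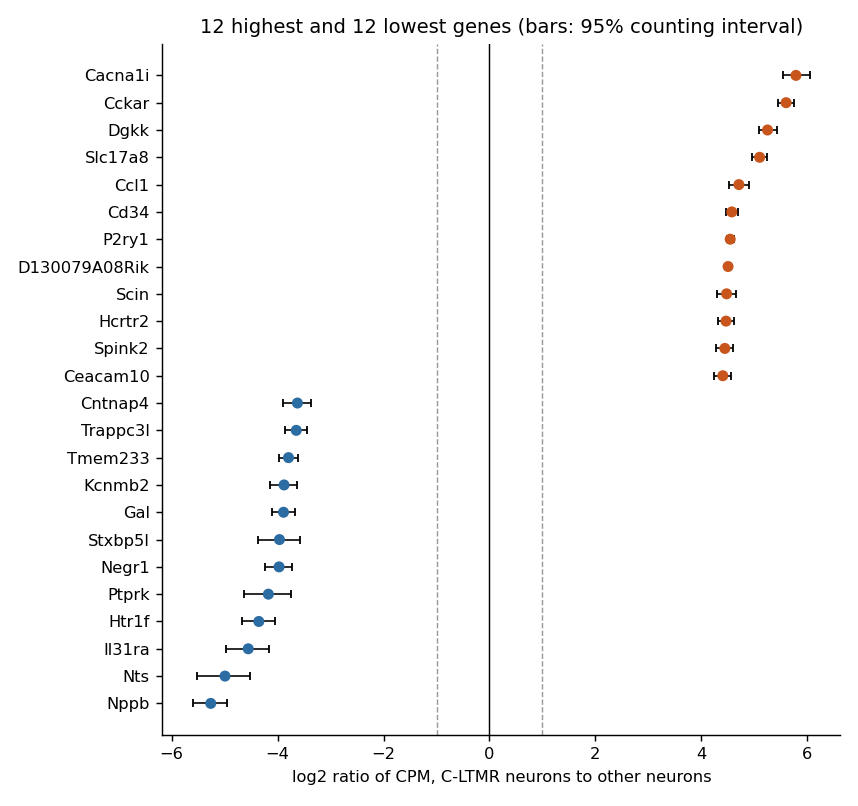
Log2 ratio of C-LTMRs to the other neurons (x axis) for the 12 genes with the highest and the 12 with the lowest ratios (y axis), with 95% counting intervals as bars. Genes had at least 50 CPM in the higher set and an interval beyond 2-fold, with the rule genes left out. Ratios run from 5.79 for Cacna1i to -5.26 for Nppb.

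Genes were ranked instead by how much more often they were detected, among those with a UMI in at least 50% of thinned C-LTMRs. The 10 highest are given here. That limit left out genes with larger share ratios in fewer C-LTMRs, such as Cckar (48.8% against 1.17% of other neurons). Wfdc2, a secreted whey acidic protein, led with 52.1% of C-LTMRs against 2.80% of other neurons, a share ratio of 18.6. Cdh9, a cadherin, was in 60.4% against 3.55% (ratio 17.0), and Cd34 and P2ry1 were also among the 10, with ratios of 16.3 and 12.1. Sema3e, a guidance ligand, had a ratio of 12.7, but without thinning 20.1% of glial barcodes carried it against 18.4% of other neurons. Rgs5, a regulator of G-protein signalling best known in pericytes, was in 93.1% of C-LTMRs against 9.87% of other neurons (ratio 9.43). Pou4f2 (7.78), a POU factor also known as Brn3b, Fat3 (7.26), Gm7271 (6.55) and Ppm1e (6.51) closed the list of share ratios.

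Rgs5 was at 695.1 CPM against 71.8 CPM (log2 ratio 3.28), with 0, 36 and 100 UMIs and a UMI in 302 of 303 C-LTMRs. It is 1 of 5 mural cell markers, whose sum was 699 CPM in C-LTMRs, and of the other 4, Kcnj8 had no UMI in the C-LTMRs and Acta2, Pdgfrb and Abcc9 made up what remained. The summed mural markers ran from 25.99 to 1556 CPM over C-LTMRs with a median of 709 CPM, and had a median of 0 CPM over the other neurons.

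Th marks catecholamine synthesis, but the genes that complete the pathway were low. Of the 19 genes listed for the catecholamine pathway, which include Th, 7 others entered, with 2 at least 2-fold higher, 2 at least 2-fold lower and a median log2 ratio of 0.04. Ddc, which converts L-DOPA to dopamine, had 3 UMIs in 3 C-LTMRs. Dbh, which makes noradrenaline, and the plasma membrane transporters Slc6a2 and Slc6a3 had none, and a count of 0 allows up to 3 UMIs, or 0.190 CPM, over the 15791163 UMIs of the C-LTMRs. Slc18a2, the vesicular monoamine transporter, had 25 UMIs (1.58 CPM). Gch1, the first enzyme of the cofactor tetrahydrobiopterin that tyrosine hydroxylase needs, was at 1.90 CPM against 9.96 CPM, below the entry level. Pcbd1, which recycles that cofactor, was higher (log2 ratio 1.07), as was Maoa, which degrades monoamines (1.03), while Spr (-1.09) and Qdpr (-1.10), which make and regenerate the cofactor, were lower. Thinned to 10000 UMIs, Pcbd1 (0.92) and Spr (-0.95) were short of 2-fold, and Maoa (0.99) was at a minimum of 10 UMIs of both rule genes. Th was therefore measured here without detectable Dbh and with almost no Ddc.

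Of the other TAFA genes, 3 entered. Fam19a1 (log2 ratio -2.32) and Fam19a2 (-3.36) were lower in C-LTMRs and Fam19a5 (-0.01) was level. For glutamate loading, Slc17a6, the transporter of most sensory neurons, was at 260.1 CPM against 267 CPM (-0.04), and Slc17a7 was lower (-2.44), so C-LTMRs carried Slc17a8 beside an even level of Slc17a6.

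The mechanosensitive channels were split. Of 15 listed, 10 entered, 2 were higher (Piezo2 and Tmem63b, 1.19) and 5 lower, with a median of -0.82 on the log2 scale. The lower ones were Kcnk2 (-3.49), a mechanically gated potassium channel, Kcnk10 (-2.20) of the same family, Stom (-2.66), a membrane protein that modulates such channels, and the osmosensitive Tmem63a (-2.39) and Tmem63c (-1.38).

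Among voltage-gated channels, the sodium channel list leaned higher, with 4 of 11 entered genes at least 2-fold higher, 0 lower and a median log2 ratio of 0.55. Scn1a (1.42), Scn3a (1.14) and Scn8a (1.11) are pore subunits and Scn3b (1.22) is an auxiliary one. Scn10a (-0.81) and Scn11a (-0.90), the tetrodotoxin-resistant channels of nociceptors, were below 0 but short of 2-fold. The calls of this list depended on the setting: thinned to 10000 UMIs Scn3a (0.55) and Scn8a (0.80) were short of 2-fold, by the mean of CPM per neuron Scn1a (0.98), Scn3a (0.68) and Scn8a (0.87) were, and Scn11a was at -1.11 without C-LTMRs in another gate. Of 14 entered calcium channel genes 3 were higher, Cacna1i, Cacna1h and the auxiliary Cacna2d3 (1.87), and 4 were lower, Cacna1e (-3.69), Cacnb2 (-3.63), Cacna1c (-3.26) and Cacna2d1 (-1.21), the last known as a target of gabapentin. Cacna1i and Cacna1h encode T-type pores, Cacna1e the R-type and Cacna1c an L-type. Cacna1d was short of 2-fold higher, but not under every setting. It was at 1.01 and 1.03 with a minimum of 5 and 10 UMIs of both rule genes, and at 1.12 in the largest cluster alone.

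Potassium and HCN channels split almost evenly, with 10 higher and 11 lower of 34 entered genes (39 listed) and a median log2 ratio of 0.06. The higher genes included the A-type channels and their partners. Kcnd3, an A-type pore subunit, was at 621 CPM against 60.4 CPM (log2 ratio 3.36), Dpp10 at 1218 CPM against 257.1 CPM (2.24) and Kcnip4 at 1864 CPM against 612.9 CPM, and both latter genes encode proteins that bind such subunits. Kcna4 (1.55), Kcnd2 (1.52) and the pacemaker channel Hcn2 (1.07) were also higher, though Kcnd2 was at 0.94 thinned to 10000 UMIs and Hcn2 at 0.87 by the mean of CPM per neuron. Kcnq5 (-3.41), an M-type channel, Kcns3 (-2.64), Kcnn2 (-2.57) and Kcnk3 (-2.36) were lower.

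TRP channels, which detect heat, cold and irritants, were low. Of 12 entered TRP genes 0 were higher and 7 lower, with a median log2 ratio of -1.11. Trpm8, the menthol and cold receptor, was at -5.82, Trpm3, a heat channel, at -3.09 and Trpa1, the irritant receptor, at -1.19. Trpv1, the capsaicin receptor, was at 15.3 CPM against 128.6 CPM (-3.07). Of the acid and ATP channels, Asic2 was at 717.4 CPM against 354.9 CPM (1.02) and Asic1 was higher (1.12, but 0.75 thinned to 10000 UMIs and 0.73 by the mean of CPM per neuron), while P2rx3, the ATP channel of nociceptors, was lower (-2.27).

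Of 19 entered inhibitory receptor genes 5 were higher and 10 lower, with a median log2 ratio of -1.69. Htr1d (2.95), a serotonin receptor that is a target of triptans, the GABA-A subunits Gabra3 (1.68), Gabra2 (1.48) and Gabrb2 (1.33) and the glutamate receptor Grm8 (1.32) were higher. Thinned to 10000 UMIs, Grm8 (0.69) and Gabrb2 (0.94) were short of 2-fold. Npy2r (-4.55), Gabrg3 (-4.51) and the cannabinoid receptor Cnr1 (-3.18) were lower. Oprm1, the µ-opioid receptor, was at 29.3 CPM against 309.8 CPM (-3.40), and at 2.42 CPM in the 196 C-LTMRs of the largest cluster described below.

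Neuropeptides were low almost throughout, with 0 of 13 entered genes higher, 12 lower and a median log2 ratio of -3.10. Sst, somatostatin, was at -6.19, Adcyap1, the PACAP gene, at -2.84 and Calcb at -1.36, and Vgf (-0.40) was the one not 2-fold lower. Calca was at 337.3 CPM against 2915 CPM (-3.11) and was unevenly spread, with 0, 1 and 784 UMIs as the lowest, median and highest and 59.2% of its UMIs in 10 C-LTMRs. Tac1, the substance P gene, was at 216.3 CPM against 1424 CPM (-2.72), and after thinning was in 47.9% of C-LTMRs, 64.0% of other neurons and 4.33% of glial barcodes. Most C-LTMRs thus had next to no Calca but many had some Tac1.

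Of 11 entered trophic receptor genes, 3 were higher and 5 lower, with a median log2 ratio of -0.21. Besides Gfra2 and Ret the higher gene was Ntrk3 (2.08), the neurotrophin-3 receptor. Gfra3 (-3.56) and Gfra1 (-2.61), co-receptors for artemin and GDNF, Osmr (-3.07) and Il6st (-1.05), cytokine receptor subunits (Il6st at -0.99 by the mean of CPM per neuron), and Kit (-2.41) were lower.

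Transcription factors split evenly in the main values, with 6 of 25 entered genes higher and 6 lower and a median of 0.00 on the log2 scale. Pou4f2 (3.41), Zfp521, Casz1 (2.36), Pou4f1 (1.76), Prrxl1 (1.63) and Hopx (1.09, but 0.93 thinned to 10000 UMIs) were higher. Foxp2 (-4.25), Bcl11a (-3.09), Etv1 (-3.03), Bcl11b (-2.88), Zeb2 (-2.10) and Prdm8 (21.1 CPM against 42.3 CPM) were lower. Some genes that lay between passed 2-fold under other settings. In the largest cluster alone Tlx3 was at 1.11 and Maf at -2.95, and thinned to 10000 UMIs Tlx3 was at 1.07 and Zfp804a at -1.15.

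The cytoskeletal list had 0 of 15 genes higher and 8 lower, with a median log2 ratio of -1.12. Nefh, the heavy neurofilament that marks large myelinated neurons, was at 58.5 CPM against 258.4 CPM (-2.14), with Nefm at -1.95 and Nefl at -1.15. Gap43 (-2.68), a growth cone protein, Stmn4 (-3.38) and Map2 (-2.59) were lower, and Prph (0.09), the filament of small neurons, was level. Of 37 entered adhesion and guidance genes 8 were higher and 18 lower (median -0.95). The cadherins Cdh9 (4.36), Cdh7 (4.02), Cdh10 (3.44) and Cdh6 (1.42, but 0.88 thinned to 10000 UMIs), the ephrins Efnb2 (2.90) and Efna5 (1.48) and the receptors Nrp1 (2.53) and Robo1 (2.44) were higher, and Unc5d (-4.35), Cdh12 (-3.68) and Unc5c (-3.13) were lower.

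FGF1 is the growth factor in the study's title. Fgf1 had 0, 4 and 36 UMIs as the lowest, median and highest over C-LTMRs and summed to 100.9 CPM against 155.7 CPM (log2 ratio -0.63), so it was present but lower than in the other neurons by less than 2-fold. After thinning it was in 33.3% of C-LTMRs, 43.1% of other neurons and 10.7% of glial barcodes. Of 11 entered FGF genes 3 were higher, the intracellular Fgf12 (997.8 CPM against 366.5 CPM, 1.44) and the feedback inhibitors Spry2 (1.81) and Spry4 (1.19). The intracellular Fgf13 (401.8 CPM against 1058 CPM, -1.40) and Fgf14 (-3.88) were lower and the receptor Fgfr1 (0.16) was level. Fgf12, Fgf13 and Fgf14 encode proteins that bind sodium channels and are not secreted.

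Of 17 entered injury and immediate-early genes 0 were higher and 11 lower, with a median log2 ratio of -1.21. Atf3, induced by nerve injury, was at -1.80, Jun at -1.69 and Fos at -0.75. In the largest cluster alone Fos was at -2.15 and Egr1 at -2.16, and without C-LTMRs in another gate or with 3 Fabp7 UMIs they were at -2.08 and -2.07. The other neurons were left unfiltered in both settings, and 30.4% of them had at least 3 Fabp7 UMIs. Satellite glia markers summed to 223 CPM in that cluster and 1300 CPM over all C-LTMRs, and their part in the result was not tested.

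**Figure D3:**
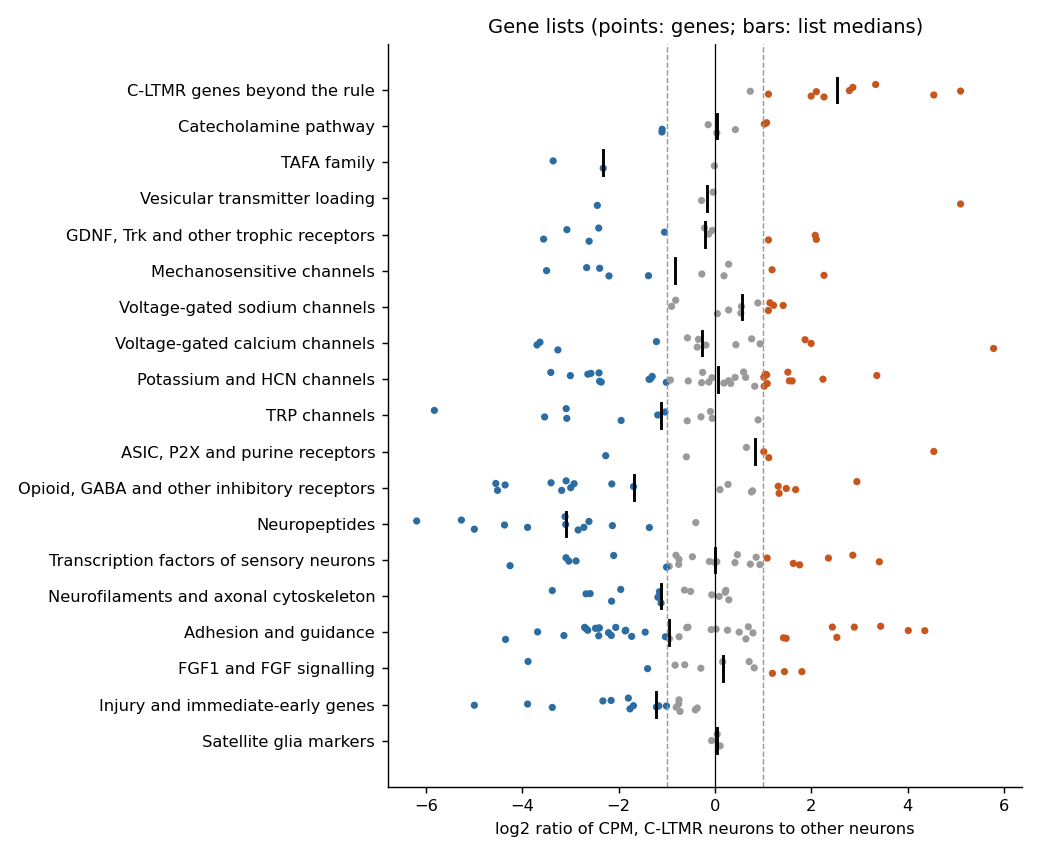
Log2 ratio of C-LTMRs to the other neurons (x axis) for the entered genes of 19 gene lists (y axis), 1 point per gene, with bars at the medians and the rule genes left out. The C-LTMR list has the median 2.53, neuropeptides -3.10 and TRP channels -1.11.

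Markers of other neuron classes were low, with 5 of 5 Mrgprd nociceptor markers, 4 of 4 peptidergic, 6 of 6 Nppb itch and 3 of 3 cold-sensing markers at least 2-fold lower. Of 5 entered markers of large myelinated neurons, 3 were lower, Ntrk2 (-0.13) lay between and Ntrk3 was higher. Of the cells that could travel with a neuron, satellite glia markers were level, with 0 of 3 entered genes 2-fold different and a sum of 1300 CPM against 1267 CPM. Schwann cell markers summed to 1971 CPM against 739 CPM, with 3 of 4 higher, Mbp (2.14), Pmp22 (1.45) and Scn7a (1.23, but 0.98 thinned to 10000 UMIs). Ncmap (0.44), of myelinating Schwann cells, was not 2-fold higher. The Schwann sum ran from 559 to 5502 CPM over C-LTMRs with a median of 1974 CPM. Thinned, Scn7a was in 96.0% of C-LTMRs and 3.53% of glial barcodes.

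A count that rested on a single barcode was that of neutrophil genes. S100a8 and S100a9, granule proteins of neutrophils, appeared higher in C-LTMRs, but 1 barcode held 1137 of 1167 UMIs of S100a8 and 1322 of 1355 of S100a9. In the other 302 C-LTMRs they were at 1.91 and 2.10 CPM.

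Clustering the neurons with Th, Fam19a4 and vector features left out placed 196 of the 303 C-LTMRs in 1 cluster of 234 neurons, 63 in another of 82 and 25 in another of 70, with 19 in 10 further clusters. The first pair held 259 C-LTMRs (85.5%) and 57 neurons outside the rule, 47 of which had at least 10 Fam19a4 UMIs and under 3 of Th. The rule and the clustering thus parted at these 57 neurons on one side and at the 25 and 19 C-LTMRs placed elsewhere on the other.

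The 63 C-LTMRs of the second cluster differed from the 196 of the first in 387 of 9131 genes that were at least 2-fold higher (4.24%) and 18 that were lower (0.197%). They carried the transcripts of satellite glia, with 3 of 4 entered markers higher and none at 0. The sum of 5 satellite glia markers ran from 296 to 17688 CPM with a median of 5984 CPM in these 63 and from 45.4 to 1001 CPM with a median of 212 CPM in the 196. Apoe was at 4899 CPM against 114 CPM and Fabp7 at 1004 CPM against 12.0 CPM, and 61 of 63 against 7 of 196 had at least 3 UMIs of Fabp7. Immediate-early genes differed in the same direction, Jun by 4.51, Fos by 3.12 and Egr1 by 3.09 on the log2 scale, and whether this came with the glial transcripts was not tested. C-LTMR genes differed by less than 2-fold between the clusters, with log2 ratios of 0.13 for Slc17a8, 0.10 for P2ry1, 0.02 for Piezo2 and 0.02 for Cckar, and of -0.57 for Ceacam10, -0.48 for Rarres1, -0.22 for Bhlha9 and -0.22 for Th, the latter 4 with intervals below 0.

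The 25 C-LTMRs of the third cluster had more peptidergic RNA than the first. They had less Slc17a8, P2ry1, Piezo2, Cckar, Ceacam10, Rarres1, Bhlha9 and Th, but not less Ret (702 CPM against 647 CPM). Slc17a8 was at 70.5 CPM and P2ry1 at 213 CPM, against 125 and 457 CPM in the first cluster, and Calca was at 1824 CPM against 15.2 CPM. Their median depth was 66859 UMIs against 53450, and 22 of the 25 also passed the gate of another class.

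In all, 36 C-LTMRs (11.9%) also had at least 3 UMIs of the marker genes that gate another class, 26 of them peptidergic, 9 Mrgprd, 4 silent-type, 3 Mrgpra3, 1 Nppb and 1 proprioceptor, and some passed several gates. A further measure of mixed droplets, at least 3 UMIs of Fabp7, was met by 78 C-LTMRs (25.7%) and by 30.4% of the other neurons. Scrublet, a doublet caller, marked 1 C-LTMR and 22 other neurons. The part of mixed droplets in the results was not tested. In the 267 C-LTMRs in no other gate, P2ry1 was at 457 CPM, Slc17a8 at 125 CPM and Calca at 79.8 CPM.

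Against neurons that passed the gate of 1 class alone, the 267 C-LTMRs were most alike in profile to Mrgprd neurons, with a Pearson correlation of 0.792 over log levels of 9448 genes, followed by Mrgpra3 neurons (0.769) and Trpm8 neurons (0.767). These are descriptions across genes of pooled cells from 1 library. Against the 509 Mrgprd neurons, 1525 of 9110 genes were at least 2-fold higher in C-LTMRs (16.7%) and 763 lower (8.38%). Zfp521 was at 402 CPM against 0.953 CPM and Ceacam10 at 72.2 CPM against 0.0715 CPM, and in the other direction Mrgprd was at 0.889 CPM against 171 CPM and Lpar3, a lysophosphatidic acid receptor, at 2.59 CPM against 221 CPM.

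The levels in the 8 exclusively gated classes showed which genes C-LTMRs shared with another class. P2ry1 was at 457 CPM in C-LTMRs and at most 23.0 CPM in the other gated classes, and Cacna1i at 61.8 CPM and at most 1.91 CPM. Neurons in no gate or in several are outside this comparison. By cluster instead, 1 cluster of 43 neurons, of which 3 were C-LTMRs, had P2ry1 at 373 CPM, Piezo2 at 795 CPM, Rgs5 at 669 CPM and Nefh at 1095 CPM. Another cluster of 52 neurons, of which 1 was a C-LTMR, had Rgs5 at 995 CPM, above its level in C-LTMRs. By class again, Piezo2 was at 1489 CPM in C-LTMRs, with Mrgprd neurons next at 433 CPM, and Gfra2 at 670 CPM, with Mrgprd neurons next at 362 CPM. Slc17a8 was at 125 CPM, with Trpm8 neurons next at 49.6 CPM, and Dgkk at 104 CPM, with Trpm8 neurons next at 27.3 CPM. Other genes were higher in 1 other class or, for Rgs5, less than 2-fold lower there. Zfp521 was at 402 CPM and at 415 CPM in the 65 Trpm8 neurons, and Rarres1 at 462 CPM and at 836 CPM there. Rgs5 was at 745 CPM and at 607 CPM in the 131 Mrgpra3 neurons, and Ntrk3 at 277 CPM and at 485 CPM in the 27 proprioceptor-like neurons. Fgf1 was at 88.3 CPM in C-LTMRs, above Trpm8 (7.93 CPM), Mrgprd (26.1 CPM) and Nppb neurons (76.0 CPM). It was higher in peptidergic (219 CPM), Mrgpra3 (266 CPM), silent-type (416 CPM) and proprioceptor-like neurons (590 CPM). With 1 library these are levels of pooled cells, and neighbours in each order were not tested.

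**Figure D4:**
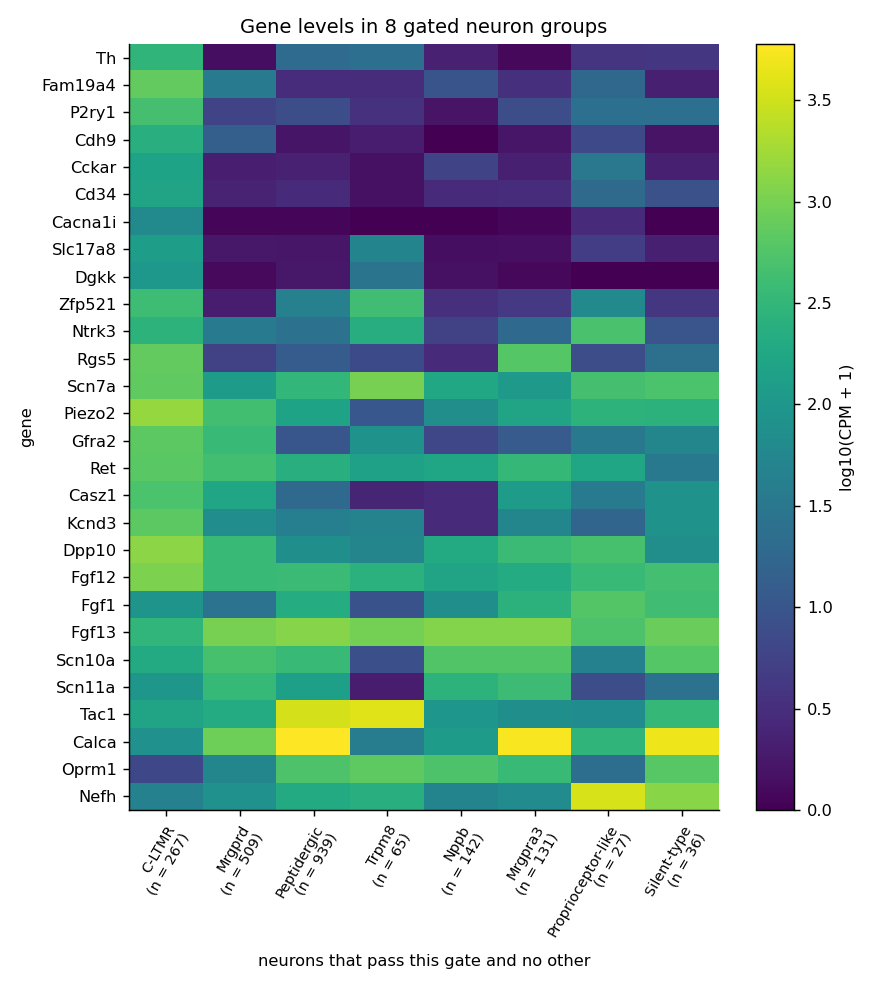
Levels as log10(CPM + 1) (colour) of 28 genes (rows) in neurons that pass the gate of 1 of 8 classes alone (columns, with their numbers). Among these 8 classes P2ry1 and Cacna1i are highest in the 267 C-LTMRs, while Zfp521 is also high in the 65 Trpm8 neurons.

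The vector RNA asks which neurons took up virus injected at the tendon. Of 4 vector features 1 had UMIs. After thinning to 5000 UMIs, 13 of 303 C-LTMRs had a vector UMI (4.29%, 95% interval 2.30% to 7.23%), against 180 of 2645 other neurons (6.81%, 5.87% to 7.83%) and 10 of 2862 glial barcodes (0.349%). Both neuron shares were above that of the glial barcodes, and with 1 library the difference between C-LTMRs and other neurons was not tested. Glial barcodes were chosen for at most 2 neuron markers, so their share may understate free neuronal RNA. Without thinning the shares were 7.26%, 12.1% and 0.524%. The C-LTMRs in no other gate had 8 of 267 (3.00%, 1.30% to 5.82%), and the 36 in another gate had 5 (13.9%, 4.67% to 29.5%). The other neurons included those in several gates, so this 3.00% and their 6.81% are not like for like. Of 423 vector UMIs in C-LTMRs, 53.0% were in those 36, and the 3 highest barcodes, with 121, 47 and 44 UMIs, held 50.1%. By class alone, the thinned share was 3.73% in Mrgprd, 6.50% in peptidergic, 3.52% in Nppb, 13.7% in Mrgpra3, 18.5% in proprioceptor-like and 25.0% in silent-type neurons, and 0 of 65 Trpm8 neurons, which allows up to 5.52%.

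**Figure D5:**
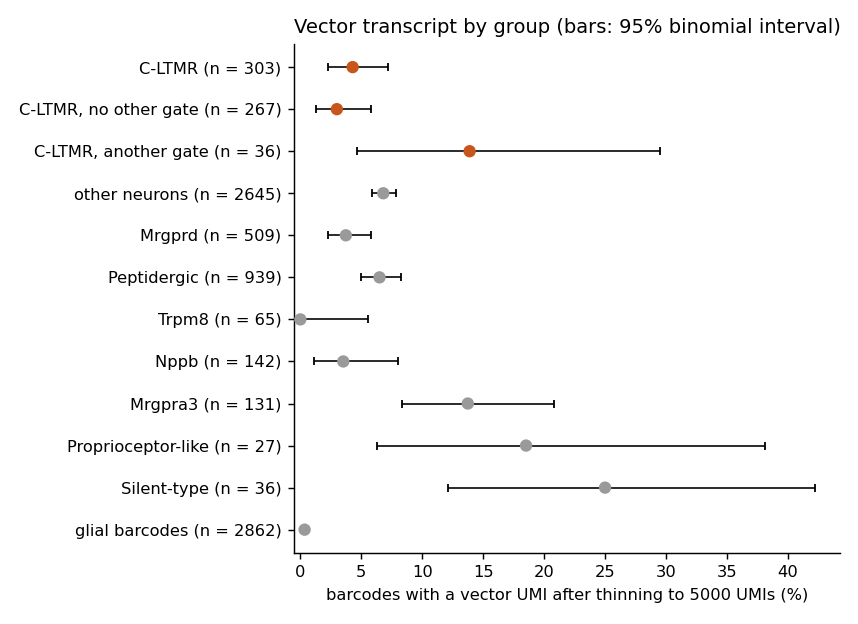
Percent of barcodes with a vector UMI after thinning to 5000 UMIs (x axis) by class (y axis), with exact 95% intervals. C-LTMRs lie at 4.29% and other neurons at 6.81%, with glial barcodes at 0.349%.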

How the data were processed

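The authors deposited raw UMI counts, whole numbers for each gene in each barcode. The file headers name Cell Ranger 8.0.1. The submitters' processing notes name mm10 and GRCm39 without saying which applies, so promoter coordinates are those of RefSeq on GRCm38.p6. The neurons and gene lists were chosen with earlier results of these data known. UMIs were summed per set, scaled to CPM, and compared as a ratio with an exact conditional 95% interval; a gene entered with at least 50 UMIs over both sets and at least 10 CPM in the higher. Genes at least 2-fold different were counted. Named genes are those of the lists, the 12 highest and 12 lowest ratios with at least 50 CPM and an interval beyond 2-fold, and 10 genes by share ratio. Some listed genes are not reported here and were left out of the lists. Shares used barcodes thinned to 5000 UMIs and exact Clopper-Pearson intervals; no barcode was too shallow. Glial barcodes had at least 5000 UMIs, at least 3 UMIs of Fabp7 and at most 2 neuron markers. Neurons were scaled to 10000 UMIs, and 2000 variable genes, 30 components and 15 neighbours were used for Leiden clusters with the resolution set to 1 (scanpy 1.11.5, leidenalg 0.10.2, Python 3.11.15). Scrublet marked 550 of 22384 scored DRG barcodes (2.46%); none was removed in the main values. Neither was a mitochondrial limit applied: 0 C-LTMRs and 13 other neurons exceeded 15%. A count of 0 is set against 3 UMIs. The count ratios were tested on simulated data.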

Additional observations from a re-analysis of the deposited data

How the results depend on the processing

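Under every alternative run, all 24 genes named for the highest and lowest ratios kept their direction. The number of C-LTMRs was 191 at a minimum of 10 UMIs of both rule genes, 196 in the largest cluster alone and 200 without those in another gate or glial-positive, against 303, and lay between 259 and 303 otherwise. Genes at least 2-fold higher ranged from 605 to 760 and lower from 862 to 1106, except without the filter on low counts, where 3167 were higher and 3417 lower of 28133. S100a8 turned to -4.28 with a minimum of 5 UMIs, -4.26 with 10, -3.54 in the largest cluster and -3.72 in the 2 largest, S100a9 to -4.28, -4.29, -3.64 and -3.61, and the median log2 ratio of Neutrophil and lymphocyte markers to -4.28, -4.28, -3.59 and -3.67, since these settings leave out the 1 barcode that holds most of their UMIs. The vector share was 7.26% unthinned, 5.28% thinned to 10000 UMIs, 3.00% without C-LTMRs in another gate and 2.5% without those and glial-positive ones. Of 293 named and listed genes, at most 22 crossed 2-fold under any setting, with thinning to 10000 UMIs, and the cause was not tested. No paired analysis was possible because the study has 1 library per group. The settings of C-LTMRs by the 2 largest clusters, and by other gates with glial transcripts, were chosen after seeing the data. Settings by cluster, other gates or glial transcripts filtered the C-LTMRs only and left the other neurons unchanged. The library's depth limits statements on genes with few UMIs, and pooling of 6 mice leaves no spread between animals.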
